A study of Mus musculus with 12 samples.

Results

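RNA of 10 genes around the tumour suppressor p53 was followed in the cortex of newborn mice, at postnatal day 0. The genes are Mdm2, Ckap2, Sesn1, Trp53inp1, Bcl2l11, Cdkn1a, Ccng1, Bax, Bbc3 and Trp53, listed by name as p53 targets and cell death genes. All 10 were found by Ensembl identifier among the 51912 gene lines of each count file, and 9 passed the filter on low counts, which Cdkn1a did not. RNA was sequenced from 4 libraries labelled control, 4 labelled H3.3 Neurod6 dKO (dKO-N) and 4 labelled H3.3 Emx1 dKO (dKO-E). The dKO mice are conditional double knockouts of H3f3a and H3f3b, which encode the histone variant H3.3. Neurod6-Cre deletes in new excitatory neurons that have left the cell cycle. Emx1-Cre deletes before that, in the dividing cells from which these neurons arise. Interneurons, microglia and vessel cells of the same tissue lie outside both Cre lineages and keep H3.3. The labels give no strain, no alleles for the controls and no statement on whether a library is 1 animal or a pool.

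The protein p53, encoded by Trp53, is a transcription factor that is stabilised when DNA is damaged or a cell is otherwise stressed. Mdm2 marks p53 for degradation and is itself a p53 target, which closes a negative feedback loop. Other targets hold the cell cycle (Cdkn1a, Ccng1), adjust metabolism and autophagy (Sesn1, Trp53inp1) or permeabilise mitochondria in apoptosis (Bax, Bbc3). Bcl2l11 encodes Bim, a death protein that neurons also use during the normal loss of cells in the developing cortex. Ckap2 encodes a spindle microtubule protein of dividing cells. In progenitors of the developing cortex, activation of p53 is a known cause of cell death and of a small brain.

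The p53 protein binds pairs of a 10-base element, the p53 decamer, and the promoters of these genes were read for it because a shared element is what the gene group is known for. RefSeq windows (GRCm38.p6, which is mm10) of 250 bases before to 50 after a start were given for 9 of the 10 genes, 14 windows in all, and not for Trp53inp1. The decamer, RRRCWWGYYY (R is A or G, W is A or T, Y is C or T), is its own reverse complement, so both strands were read at once. A full site was defined as 2 decamers with 0 to 13 bases between them and at most 1 mismatch in all. That mismatch could not fall on the fixed C or G of a decamer. Of the 14 windows 7 held a decamer, in Bax, Ckap2, Sesn1, Mdm2, Ccng1, Trp53 and Cdkn1a, against 6.69% of 11171 windows of the genes tested. A full site was found in 2 windows, those of Cdkn1a and Ccng1, against 0.439% of the windows of genes tested. Windows of Bcl2l11 and Bbc3 held no match, which says only that these letters are not in those windows. A pair with more than 1 mismatch is not counted by this rule and may still lie there. The windows of both genes with a full site and of Mdm2 and Ckap2, with a decamer each, are printed 5′ to 3′ on the gene's strand, with matches in capitals.
Cdkn1a, upstream start, chr17:29090729-29091028, plus strand: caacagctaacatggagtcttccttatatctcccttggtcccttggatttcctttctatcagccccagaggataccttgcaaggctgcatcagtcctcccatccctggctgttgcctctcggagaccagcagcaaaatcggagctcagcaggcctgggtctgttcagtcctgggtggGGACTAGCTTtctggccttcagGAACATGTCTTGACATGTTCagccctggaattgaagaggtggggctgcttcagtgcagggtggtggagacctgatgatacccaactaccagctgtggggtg
Ccng1, chr11:40755237-40755536, minus strand: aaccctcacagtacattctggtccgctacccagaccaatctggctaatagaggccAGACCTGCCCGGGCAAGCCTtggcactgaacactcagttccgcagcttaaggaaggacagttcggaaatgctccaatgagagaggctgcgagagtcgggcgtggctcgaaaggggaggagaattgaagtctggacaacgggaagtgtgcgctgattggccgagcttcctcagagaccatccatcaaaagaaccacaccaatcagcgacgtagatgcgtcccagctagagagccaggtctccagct
Mdm2, chr10:117710709-117711008, minus strand: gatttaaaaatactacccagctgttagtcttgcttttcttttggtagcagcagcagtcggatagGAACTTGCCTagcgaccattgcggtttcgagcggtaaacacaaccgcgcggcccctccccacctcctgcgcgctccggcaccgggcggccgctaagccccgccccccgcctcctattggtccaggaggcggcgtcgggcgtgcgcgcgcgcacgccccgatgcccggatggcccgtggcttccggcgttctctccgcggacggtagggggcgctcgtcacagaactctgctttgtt
Ckap2, chr8:22185770-22186069, minus strand: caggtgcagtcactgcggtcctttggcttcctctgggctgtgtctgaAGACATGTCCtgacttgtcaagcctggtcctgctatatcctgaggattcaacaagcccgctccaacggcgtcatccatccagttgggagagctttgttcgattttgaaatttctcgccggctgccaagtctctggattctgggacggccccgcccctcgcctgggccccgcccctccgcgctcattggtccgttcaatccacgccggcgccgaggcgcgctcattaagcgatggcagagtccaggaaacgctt
In Cdkn1a the paired element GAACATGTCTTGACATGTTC began 51 bases before the start and its first decamer also paired with GGACTAGCTT, 73 bases before the start. In Ccng1 the pair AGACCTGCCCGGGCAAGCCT began 195 bases before the start. The decamers of Mdm2 (GAACTTGCCT) and Ckap2 (AGACATGTCC) began 186 and 203 bases before it. The known p53-responsive promoter of Mdm2 lies in the first intron, outside this window. A match is a match of letters and was not tested for binding here.

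Depth was 722080 counts in genes in the shallowest library, dKO-N 1, and 3502017 in the deepest, dKO-N 4. Levels are CPM, counts scaled to a common library total with TMM factors, and 3 counts, taken as the floor, are worth 0.857 to 4.16 CPM. The libraries labelled control 1 and control 3 had H3f3a at 17.7 and 16.4 CPM, below all 8 knockout libraries (22.1 to 37.8 CPM), while control 2 and 4 had 117 and 121 CPM. H3f3b was at 121, 76.7, 143 and 84.2 CPM in control 1 to 4, at 146, 117, 113 and 111 in dKO-N and at 170, 176, 180 and 167 in dKO-E. It was thus called higher in dKO-E, against control (log2 0.69, edgeR adjusted p = 0.000707) and against dKO-N (0.53, adjusted p = 0.0303), and H3f3a was called in neither knockout (adjusted p = 0.494 and 0.228). For the deleted exons the sources used here give nothing, so counts over whole genes may not check the deletion. H3f3a in control 1 and 3 and H3f3b in dKO-E went against the labels, so every direction here is a direction between labels, and calls are also given without control 1 and 3. Only dKO-E 3 and 4 held more than 3 counts of Y-linked genes (1035 and 274). Sex thus differs within dKO-E and also between dKO-E and both other groups, so it is partly confounded with both dKO-E comparisons. Of 8 cortical excitatory neuron markers 7 were counted in every group. Tubb3 was listed at 0 in all libraries and so was the radial glia marker Sox2, each of which shares its strand and position with another annotated gene.

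Of the 9 tested genes, 3 were higher in dKO-N than in the libraries labelled control (Ckap2, Trp53inp1 and Sesn1) and none was lower. Over all 11076 genes tested, 5.04% were higher in that comparison and 6.29% lower. In dKO-E 4 of the 9 were higher (Ckap2, Bcl2l11, Mdm2 and Trp53inp1) and none was lower, against 10.1% higher and 10.1% lower among all genes. Trp53inp1 and Ckap2 were the genes called in both. The test was edgeR's quasi-likelihood test in 1 fit of all 12 libraries, with Benjamini-Hochberg adjustment over all genes and a threshold of 0.05. Of the 9, 3 had an unadjusted p under 0.05 in dKO-N and 4 in dKO-E. With DESeq2 none of the 9 was called in dKO-N, 3 with an unadjusted p under 0.05, and 2, Mdm2 and Ckap2, in dKO-E. Without control 1 and 3 none was called in dKO-N by edgeR, 5 with an unadjusted p under 0.05, and again Mdm2 and Ckap2 in dKO-E. The median log2 fold change of the 9 genes was 0.22 in dKO-N and 0.33 in dKO-E, against 0.014 and 0.007 over all genes. These genes were picked with results of these libraries in view, so the counts describe them and are not independent evidence of a shared change.

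**Figure D1:**
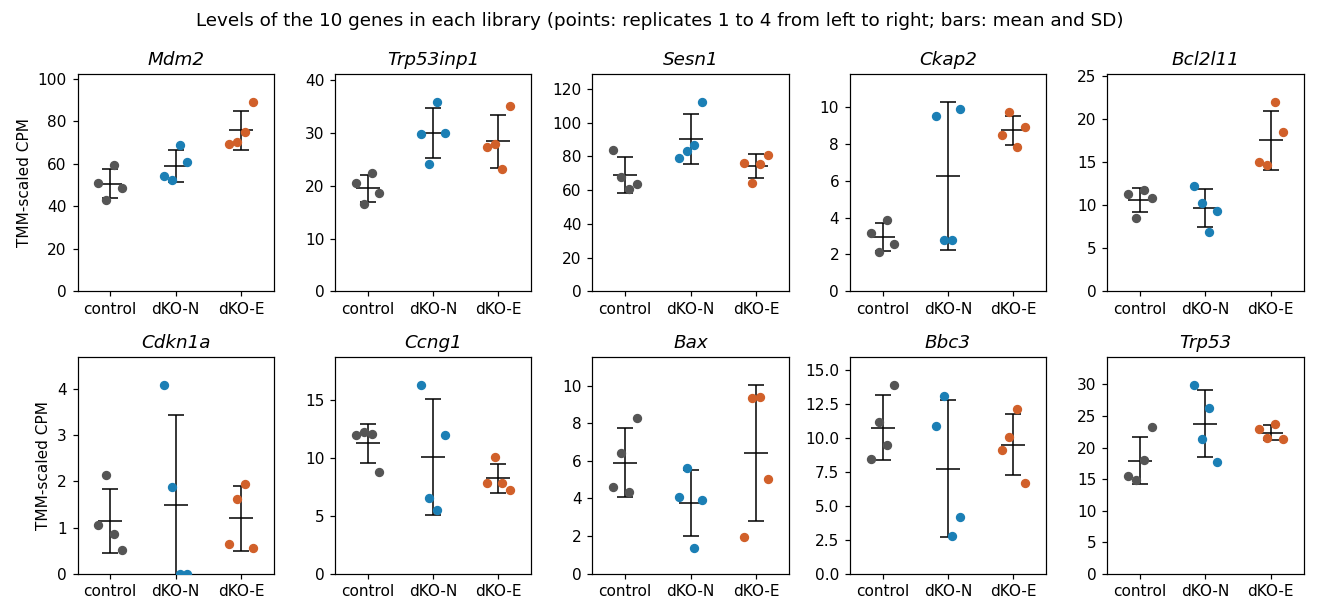
Level of each of the 10 genes (TMM-scaled CPM, vertical axis from 0) in the 4 libraries of each group; points are libraries and bars the mean and SD. Mdm2, Ckap2, Trp53inp1 and Bcl2l11 in dKO-E lie above every control library, as do 12.5% of all genes, while Cdkn1a, Ccng1, Bax, Bbc3 and Trp53 overlap between all groups.

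The p53 feedback loop was read first, from the factor to its inhibitor. Trp53 (chromosome 11, 69580359 to 69591873, mm10) was at 15.5, 14.9, 18.1 and 23.2 CPM in control 1 to 4, at 29.9, 21.4, 26.2 and 17.7 in dKO-N 1 to 4 and at 22.9, 21.5, 23.8 and 21.3 in dKO-E 1 to 4. Its groups overlapped, since control 4 reached the knockout range and dKO-N 4 lay in the control range. The difference from control was 0.30 in dKO-N (log2, 95% interval -0.18 to 0.79, edgeR adjusted p = 0.43) and 0.33 in dKO-E (-0.11 to 0.76, adjusted p = 0.252). These intervals leave room for a rise of the transcript as well as for none, and p53 is mostly controlled at the protein, which was not measured.

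Mdm2 (chromosome 10, 117688875 to 117710758), the ubiquitin ligase that restrains p53, rose in dKO-E. It was at 51.2, 43.1, 59.6 and 48.6 CPM in control 1 to 4, at 54.4, 52.2, 68.9 and 61 in dKO-N and at 69.2, 70.1, 75 and 88.9 in dKO-E. All 4 dKO-E libraries lay above all control libraries, which 12.5% of all genes did. Of dKO-N, libraries 3 and 4 lay above the controls and 1 and 2 among them. In dKO-E the rise was 1.49-fold, from 50.6 ± 6.86 to 75.8 ± 9.1 CPM (SD, n = 4; log2 fold change 0.57, SE 0.124, edgeR adjusted p = 0.00069). This call held whichever library was left out (adjusted p = 0.000159 to 0.00812). In a single draw that thinned every library to 722080 counts it just missed the threshold (log2 fold change 0.48, adjusted p = 0.0501). In dKO-N the difference was 0.22 (95% interval -0.09 to 0.53, adjusted p = 0.363). Mdm2 was higher in all 4 dKO-E libraries than in any dKO-N library, as were 5.4% of all genes (4.8% were lower in all), yet the difference of 0.36 (interval 0.06 to 0.66) did not pass (adjusted p = 0.0971).

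Other regulators of p53 were read from a list of 25 names, of which 18 were tested. In dKO-N none was called by edgeR or by DESeq2, and 3 had an unadjusted p under 0.05. The most abundant, the acetyltransferase gene Crebbp and the kinase gene Hipk2, were at -0.02 and 0.23 (log2, adjusted p = 0.926 and 0.146). In dKO-E Ppm1d and Rchy1 rose and none fell, 11.1% of the 18 against 10.1% of all genes. Ppm1d encodes the phosphatase Wip1, which dephosphorylates p53 and its kinases and is itself a p53 target. It was at 15.2, 27.2, 18.6 and 23.8 CPM in control 1 to 4, at 16.3, 22.4, 19.3 and 24 in dKO-N and at 39.8, 45.4, 39.1 and 39.2 in dKO-E. The dKO-E libraries lay above all 8 others, while 12.5% of all genes lay wholly above control and 5.4% wholly above dKO-N. The log2 fold change was 0.98 against control (SE 0.169, adjusted p = 3.35e-05) and 0.92 against dKO-N (SE 0.186, adjusted p = 0.00206). Both calls held in every leave-out and every other alternative run. Rchy1, which encodes another p53 ubiquitin ligase, rose from 17.7 ± 0.467 to 27 ± 2.75 CPM in dKO-E (log2 fold change 0.60, adjusted p = 0.012), a call lost without dKO-E 4 (adjusted p = 0.0533). Atm, the kinase that signals DNA breaks to p53, was at 61.8 ± 12 CPM in dKO-E, below the 89.7 ± 9.65 CPM of dKO-N (log2 fold change -0.56, adjusted p = 0.00589), which did not hold without dKO-N 4 (adjusted p = 0.0585).

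Among targets that serve stress adaptation, Trp53inp1 rose in both knockouts and Sesn1 in dKO-N. Trp53inp1 (chromosome 4, 11156431 to 11174379), an autophagy and cell death cofactor of p53, was at 20.5, 16.5, 22.5 and 18.6 CPM in control 1 to 4, at 29.9, 24.2, 35.8 and 30 in dKO-N and at 27.4, 28, 23.1 and 35.2 in dKO-E. Every knockout library lay above every control library, as for 5.84% of all genes in dKO-N and 12.5% in dKO-E (7.19% and 13% lay wholly below). The rise was 1.51-fold in dKO-N (log2 fold change 0.59, SE 0.189, edgeR adjusted p = 0.034) and 1.43-fold in dKO-E (0.52, SE 0.176, adjusted p = 0.033). Both calls were near the threshold: the first was lost without control 1, 2 or 4 or dKO-N 3 or 4 (adjusted p = 0.06 to 0.113), the second without control 1, 2 or 4 or dKO-E 2 or 4 (0.0609 to 0.156). The knockouts differed by -0.08 (95% interval -0.49 to 0.34, adjusted p = 0.847).

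Sesn1 (chromosome 10, 41809935 to 41908424) encodes sestrin 1, a stress protein that lowers mTORC1 signalling. It was at 84.1, 67.6, 60.9 and 63.5 CPM in control 1 to 4, at 78.9, 83, 86.8 and 112 in dKO-N and at 76.4, 64.4, 75.4 and 81.1 in dKO-E. Control 1 was as high as the middle of dKO-N, so these groups overlapped, and dKO-N 4, the deepest library, was the highest of all. The rise in dKO-N was 1.35-fold (log2 fold change 0.43, SE 0.129, adjusted p = 0.0222). It fell to 0.25 without dKO-N 4 (adjusted p = 0.304) and was no longer called without control 2, 3 or 4 either (0.0658 to 0.101). In dKO-E the difference was 0.09 (95% interval -0.19 to 0.37, adjusted p = 0.663), and the direct difference between the knockouts, -0.34, did not pass (adjusted p = 0.104). The annotation puts a second transcript model on the same strand over 2584 bases of Sesn1, and reads there may not have been assigned.

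Of the classical cell cycle targets, Ccng1 showed no call and Cdkn1a had too few counts to pass the filter. Cdkn1a (chromosome 17, 29090976 to 29100727), which encodes the cyclin-dependent kinase inhibitor p21 and is the textbook target of p53, was close to absent. It had 3, 4, 2 and 1 counts in control 1 to 4, 3, 2, 0 and 0 in dKO-N and 1, 4, 5 and 1 in dKO-E. With 10, 5 and 11 counts in the groups it was at or near the floor throughout, and no difference was detectable at this depth. Ccng1 (chromosome 11, 40748552 to 40755311), cyclin G1, which recruits a phosphatase to Mdm2, was at 12, 12.2, 12.1 and 8.78 CPM in control 1 to 4, at 16.3, 6.53, 5.51 and 12 in dKO-N and at 7.84, 10.1, 7.82 and 7.27 in dKO-E. The dKO-N libraries spread over the whole range on 4 to 40 counts each. The differences were -0.12 in dKO-N (95% interval -0.76 to 0.53, adjusted p = 0.872) and -0.44 in dKO-E (-1.05 to 0.17, adjusted p = 0.275). Of the genes with a full p53 site in the printed windows, Ccng1 was thus not called and Cdkn1a was filtered out before the test.

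Further p53 targets came from a list of 38 names, of which 19 were tested. None of the 19 was called higher in dKO-N or in dKO-E, where 5.04% and 10.1% of all genes were. This count depends on how the lists were divided. The 10 genes are not in this list, and Ppm1d, also a p53 target and higher in dKO-E, was read with the regulators. In dKO-N 1 fell, 5.26% of the 19 against 6.29% of all genes. It was Fbxw7, a ubiquitin ligase subunit (163 ± 10.9 to 119 ± 21.4 CPM, log2 fold change -0.41, edgeR adjusted p = 0.0112), and 5 of the 19 had an unadjusted p under 0.05 in either direction. Its call just missed without dKO-N 1 (adjusted p = 0.0513). In dKO-E 3 fell, 15.8% of the 19 against 10.1% of all genes. Bcl6, a transcriptional repressor that promotes neurogenesis, fell by 1.43 on the log2 scale (SE 0.249, adjusted p = 3.78e-05), from 21.5 ± 6.07 to 8.22 ± 1.82 CPM, and this held in every alternative. Rrm2b, the p53-induced ribonucleotide reductase subunit, fell from 14.9 ± 1.33 to 8 ± 2.75 CPM (-0.90, adjusted p = 0.0102), though not without dKO-E 4 (adjusted p = 0.0518). Fbxw7 was at 126 ± 14.3 CPM (-0.37, adjusted p = 0.0108), a call lost without control 1 or dKO-E 1 (adjusted p = 0.0511 and 0.0508) and with library totals in place of TMM. Over the 19 genes the median log2 fold change was 0.10 for dKO-N and 0.06 for dKO-E, with 12 and 11 of them above 0.

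**Figure D2:**
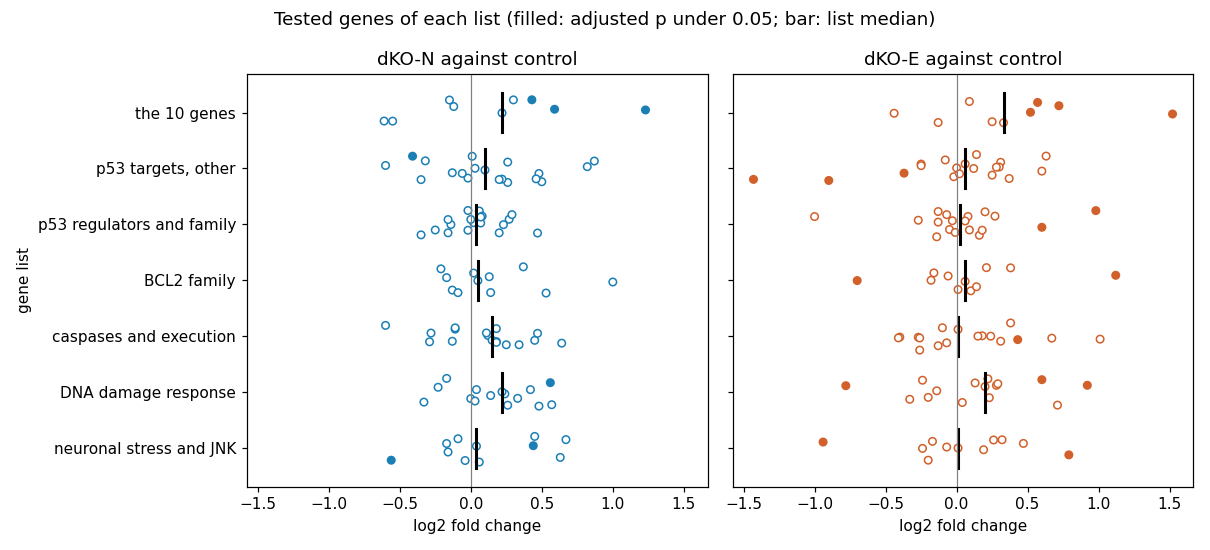
Log2 fold change of each tested gene against the libraries labelled control, by list, for dKO-N (left) and dKO-E (right); filled points passed the test and black bars are list medians. Among the other p53 targets no filled point lies right of 0, with Ppm1d, also a target, drawn among the regulators. The filled points of the 9 tested member genes all do, and these genes were picked with results of these libraries in view.

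Ckap2 (chromosome 8, 22168160 to 22185819) had the largest difference of the 9 genes and few counts. It was at 3.18, 2.13, 3.89 and 2.58 CPM in control 1 to 4 (9, 4, 9 and 5 counts), at 9.52, 2.8, 2.76 and 9.91 in dKO-N (7, 3, 2 and 33 counts) and at 8.49, 9.72, 7.82 and 8.95 in dKO-E (13, 24, 20 and 16 counts). The dKO-E libraries were alike and all above the controls, as for 12.5% of all genes. Of dKO-N, libraries 1 and 4 were near 10 CPM and libraries 2 and 3 had counts at or under the floor of 3, too few to place. In dKO-E it rose 2.88-fold, from 2.94 ± 0.761 to 8.74 ± 0.802 CPM (log2 fold change 1.52, SE 0.37, edgeR adjusted p = 0.00249), a call that held in every leave-out (adjusted p = 0.00106 to 0.0132) and in the 8 other alternatives in which it was tested. In dKO-N the fitted rise was 2.35-fold (1.23, SE 0.408, adjusted p = 0.0424), and 9 of 12 leave-outs ended the call. Without dKO-N 4 the value was 0.66 (adjusted p = 0.548). The other libraries that ended it were all 4 controls, dKO-N 1 and dKO-E 2, 3 and 4 (adjusted p = 0.0515 to 0.118). The knockouts differed by 0.29 (95% interval -0.51 to 1.09, adjusted p = 0.683).

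Since Ckap2 belongs to dividing cells, 16 markers of cycling cells were set beside it. Their summed level was 150 to 209 CPM in control, 158 to 307 in dKO-N and 175 to 213 in dKO-E, so all groups overlapped. In dKO-E none of the 10 tested markers was called by edgeR or DESeq2, and 1 had an unadjusted p under 0.05. Mki67, the proliferation marker, was at 49.3 ± 6.57 CPM in control and 53.3 ± 5.3 in dKO-E, and Top2a at 25.9 ± 9.48 and 24.8 ± 3.41. In dKO-N Cenpf, a kinetochore gene, was called by edgeR (log2 fold change 0.78, adjusted p = 0.0271) and none by DESeq2. This was 10% of the 10 called higher, against 5.04% of all genes. Of the 10, 9 were above 0 in dKO-N, with a median of 0.39, and 4 had an unadjusted edgeR p under 0.05. Cenpf was also called in dKO-E against dKO-N (-0.76, adjusted p = 0.0499). The sum was 307 CPM in dKO-N 4, which was high for Ckap2, and 158 CPM, the lowest of the group, in dKO-N 1, which was high as well. The part of dividing cells in the Ckap2 values was not tested.

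Among the cell death genes Bcl2l11 rose in dKO-E and the p53-controlled pair Bax and Bbc3 showed no call. Bcl2l11 (chromosome 2, 128126038 to 128162547), whose product Bim binds and neutralises survival proteins of the BCL2 family, was at 11.3, 8.52, 11.7 and 10.8 CPM in control 1 to 4, at 12.2, 10.3, 6.89 and 9.31 in dKO-N and at 15, 14.6, 21.9 and 18.5 in dKO-E. The dKO-E libraries lay above all 8 others, and control and dKO-N overlapped. Of all genes, 12.5% lay wholly higher in dKO-E than in control and 5.4% wholly higher than in dKO-N. The rise in dKO-E was 1.65-fold, from 10.6 ± 1.41 to 17.5 ± 3.4 CPM (log2 fold change 0.72, SE 0.224, edgeR adjusted p = 0.0192), while dKO-N was at 9.68 ± 2.22 CPM (-0.15, 95% interval -0.76 to 0.46, adjusted p = 0.811). The direct difference between the knockouts passed (0.87, SE 0.255, adjusted p = 0.0317), the single call among the 9 genes. In that comparison 6.84% of all genes were called, 3.11% higher and 3.73% lower. The highest values were those of dKO-E 3 and 4, the libraries with Y-linked counts. With sex as a covariate, where dKO-E 1 and 2 alone carry the effect, the rise was 0.47 (adjusted p = 0.32) and the difference between knockouts 0.62 (adjusted p = 0.314). The rise was also not called without control 2 or dKO-E 3 (adjusted p = 0.0702 and 0.122), and the difference not without dKO-N 3 or 4 or dKO-E 3 or 4 (0.0669 to 0.152).

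Bax (chromosome 7, 45461697 to 45466898), which forms the pore in the outer mitochondrial membrane, was at 4.59, 6.39, 4.32 and 8.27 CPM in control 1 to 4, at 4.08, 5.6, 1.38 and 3.91 in dKO-N and at 1.96, 9.32, 9.38 and 5.03 in dKO-E. Both dKO-E extremes lay outside the control range, on 3 to 24 counts. Its differences were -0.55 in dKO-N (log2, 95% interval -1.57 to 0.46, edgeR adjusted p = 0.518) and 0.25 in dKO-E (-0.58 to 1.08, adjusted p = 0.693), intervals that span a 2-fold change in a direction each. Another protein-coding model, Gm45808, overlaps 915 bases of Bax on the same strand, so its count is uncertain. Bbc3 (chromosome 7, 16308393 to 16318205) encodes Puma, the activator of p53-driven death in many neurons. It was at 8.48, 11.2, 9.5 and 13.9 CPM in control 1 to 4, at 10.9, 13.1, 2.76 and 4.21 in dKO-N and at 9.14, 10.1, 12.1 and 6.71 in dKO-E. Libraries of dKO-N 3 and 4 lay below all others and dKO-N 1 and 2 within the control range. The differences were -0.61 in dKO-N (-1.41 to 0.18, adjusted p = 0.309) and -0.13 in dKO-E (-0.80 to 0.55, adjusted p = 0.811).

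**Figure D3:**
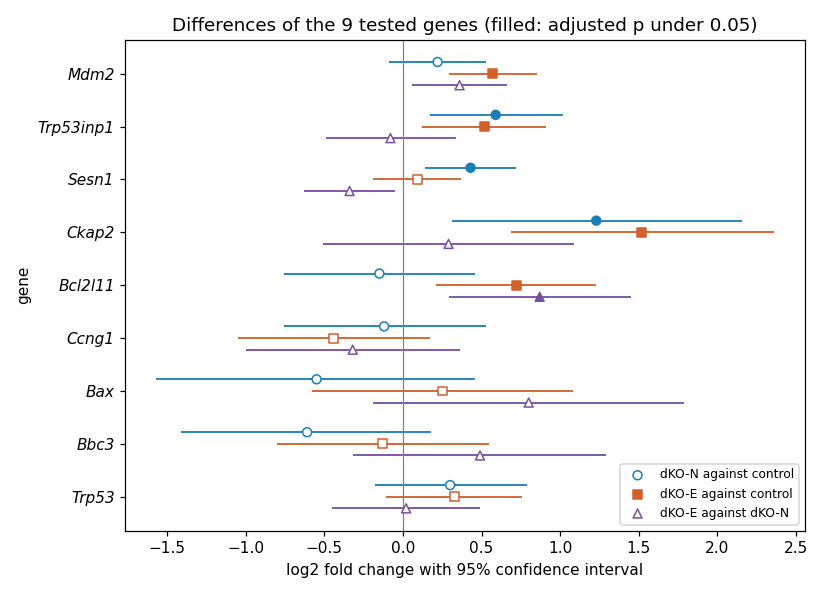
Log2 fold change with 95% confidence interval (horizontal axis) of the 9 tested genes in the 3 comparisons; filled symbols passed the test at an adjusted p of 0.05. Bcl2l11 is the only gene with a filled triangle, the direct comparison of the knockouts (0.87), and the intervals of Bax and Ckap2 against control are the widest.

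The rest of the BCL2 family, 15 names of which 11 were tested, gave 2 calls in dKO-E. In dKO-N none was called by edgeR or DESeq2, 2 with an unadjusted p under 0.05, and the abundant survival genes Bcl2 and Mcl1 were at -0.17 and 0.13 (log2, adjusted p = 0.397 and 0.624). In dKO-E Hrk rose and Bad fell, each 9.09% of the 11, against 10.1% of all genes higher and 10.1% lower. Hrk, a neuronal BH3-only death gene, had a mean of 8.6 ± 4.72 CPM over the control libraries, of 15 ± 7.33 over dKO-N and of 18.5 ± 2.04 over dKO-E. All 4 dKO-E libraries (16.3 to 21.1 CPM) exceeded the highest control (15 CPM), as for 12.5% of all genes. The rise in dKO-E passed narrowly (log2 fold change 1.12, SE 0.371, edgeR adjusted p = 0.0397) and was lost in 8 of 12 leave-outs, those of control 1, 2 and 3, dKO-N 3 and each dKO-E library. Bad, also a BH3-only gene, fell from 16.5 ± 4.24 to 10.2 ± 1.22 CPM (-0.70, adjusted p = 0.0352), a call lost in 6 leave-outs, of control 1, 2 and 3 and dKO-E 2, 3 and 4. Bcl2l13, which acts in the removal of mitochondria, was at 28.8 ± 3.37 CPM in dKO-E, below the 42.1 ± 6.31 CPM of dKO-N (log2 fold change -0.53, adjusted p = 0.0389), a call lost in 5 leave-outs, of dKO-N 3 and 4 and dKO-E 1, 2 and 4.

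Of 23 caspase and execution genes 17 were tested. None was called in dKO-N by either tool, 4 with an unadjusted p under 0.05, and Birc6 and Parp1, the most abundant, were at -0.13 and 0.18 (log2, adjusted p = 0.426 and 0.378). In dKO-E Casp2, a caspase that acts upstream of mitochondria, was the single call (39.9 ± 2.79 to 53.4 ± 5.5 CPM, log2 fold change 0.43, edgeR adjusted p = 0.0187), 5.88% of the 17 against 10.1% of all genes. It was lost without control 1 or 2 or dKO-E 3 or 4 (adjusted p = 0.06 to 0.0672). Aifm1, a mitochondrial flavoprotein that enters the nucleus in cell death, was at 13.9 ± 4.58 CPM in dKO-E, below the 22.6 ± 7.44 CPM of dKO-N (log2 fold change -0.87, adjusted p = 0.0208). The high dKO-N mean rested on dKO-N 4 (33.6 CPM, beside 17.7, 19.6 and 19.3 in replicates 1 to 3), and without it the difference was -0.46 (adjusted p = 0.441). Leaving out dKO-E 2, 3 or 4 also ended that call.

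The DNA damage response, which lies upstream of p53, was read from 19 genes of which 15 were tested. Prkdc, the catalytic subunit of the DNA-dependent kinase that joins broken ends, rose from 35.2 ± 5.78 CPM in control to 49.2 ± 10.8 in dKO-N (log2 fold change 0.56, edgeR adjusted p = 0.0163). It rose to 53.3 ± 5.82 CPM in dKO-E (0.60, adjusted p = 0.0034), a call lost with sex as a covariate (adjusted p = 0.105). The value of dKO-N was 0.30 without dKO-N 4 (adjusted p = 0.369), and the call was also lost without control 2 or 3. In dKO-E Nbn, a sensor of DNA breaks, rose from 13.4 ± 2.92 to 24.9 ± 4.08 CPM (0.92, SE 0.228, adjusted p = 0.00293), and Xrcc6, an end-binding partner of Prkdc, fell from 24.8 ± 5.28 to 14.9 ± 4.63 CPM (-0.78, adjusted p = 0.00544). With sex as a covariate neither passed (adjusted p = 0.0835 for Nbn and 0.114 for Xrcc6), nor after thinning (0.155 and 0.134). Both were also called between the knockouts, Nbn at 1.25 (adjusted p = 0.00379) and Xrcc6 at -0.80 (adjusted p = 0.0219). Neither of these direct calls passed with sex as a covariate (adjusted p = 0.0688 and 0.216) or after thinning (0.0832 and 0.236). Without dKO-N 4, which had the lowest Nbn value (5.71 CPM, beside 15, 14 and 16.5 in replicates 1 to 3), the Nbn difference was 0.74 (adjusted p = 0.122), and Xrcc6 was not called there without dKO-N 4 or dKO-E 2, 3 or 4. In dKO-E 2 of the 15 were thus higher and 1 lower, 20% in all against 20.2% of all genes called in either direction.

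Genes of neuronal stress signalling through the kinase JNK, which can raise Bcl2l11 and Hrk in neurons, were 15 in number with 11 tested. In each knockout 1 was higher and 1 lower, 9.09% each, against 5.04% and 6.29% of all genes in dKO-N and 10.1% in each direction in dKO-E. Map3k12, the axonal injury kinase at the head of this pathway, fell from 61.4 ± 5.68 CPM in control to 38.7 ± 8.49 in dKO-N (log2 fold change -0.56, edgeR adjusted p = 0.0188). Against control it was at 31.9 ± 8.26 CPM in dKO-E (-0.94, adjusted p = 2.2e-05). Every knockout library was below every control library, as for 7.19% of all genes in dKO-N and 13% in dKO-E. The dKO-E call held in every alternative, while that in dKO-N was lost without control 1 or dKO-N 2 or 3 (adjusted p = 0.0573 to 0.0602). Foxo3, a transcription factor able to induce Bcl2l11, rose in dKO-N (69.4 ± 11.1 to 93.4 ± 11.5 CPM, 0.44, adjusted p = 0.014) and lost its call without control 2 or 3 or dKO-N 4. Its relative Foxo1 rose in dKO-E (23.2 ± 6.54 to 41.1 ± 6.55 CPM, 0.79, adjusted p = 0.00337) in every alternative. Both lay near the threshold in the other knockout, Foxo3 at 0.32 in dKO-E (adjusted p = 0.0501) and Foxo1 at 0.63 in dKO-N (adjusted p = 0.0518), and neither was called between the knockouts (adjusted p = 0.601 and 0.696). Mapk9, a JNK gene, was higher in dKO-E than in dKO-N (99 ± 4.78 against 77.1 ± 1.6 CPM, 0.35, adjusted p = 0.046), a call that each of the 12 leave-outs ended (adjusted p = 0.0501 to 0.125).

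Without control 1 and 3 the calls of Fbxw7, Prkdc, Map3k12 and Foxo3 in dKO-N were all lost (edgeR adjusted p = 0.0639 to 0.18). In dKO-E the calls of Rrm2b, Fbxw7, Rchy1, Hrk, Bad, Casp2 and Nbn were lost (adjusted p = 0.054 to 0.307), and those of Bcl6, Ppm1d, Xrcc6, Prkdc, Map3k12 and Foxo1 held (0.000618 to 0.0345). With sex as a covariate the dKO-E calls of Rrm2b, Rchy1, Hrk, Bad, Casp2, Nbn, Xrcc6 and Prkdc were lost (edgeR adjusted p = 0.0809 to 0.252). Those of Bcl6, Fbxw7, Ppm1d, Map3k12 and Foxo1 held. After thinning the dKO-E calls of Fbxw7, Rchy1, Hrk, Bad, Casp2, Nbn and Xrcc6 were lost (0.0562 to 0.804), and the other dKO-E calls held. In dKO-N only Prkdc was lost, after thinning (0.08).

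Markers of other cells moved with the groups as well, and in whole tissue fewer cells of a type and less RNA per cell cannot be told apart. The 8 excitatory neuron markers summed to 2380 to 2750 CPM in control, 1560 to 2250 in dKO-N and 1090 to 1480 in dKO-E, without overlap. The 8 radial glia markers summed to 265 to 321 CPM in control, 361 to 436 in dKO-N and 329 to 406 in dKO-E. The 10 microglia and macrophage markers were at 10.6 to 18.1 CPM in control, 17.9 to 28.6 in dKO-N and 19.5 to 27.4 in dKO-E, with 2 of them, Tyrobp and C1qa, at 0 in dKO-E. Only 2 of the 10, Csf1r and Cx3cr1, were tested, and Csf1r was called in dKO-E (3.58 ± 1.92 to 9.27 ± 3.79 CPM, log2 fold change 1.35, edgeR adjusted p = 0.00793). Cx3cr1 did not rise with it in dKO-E (log2 fold change -0.06, edgeR adjusted p = 0.934). Endothelial and mural markers summed to 96.4 to 106 CPM in control, 68.1 to 90.1 in dKO-N and 69.2 to 94.1 in dKO-E, lower without overlap. Gene by gene, none of these 7 was called in dKO-N and only Rgs5 in dKO-E (log2 fold change -0.68, edgeR adjusted p = 0.0302). DESeq2 called none of them in either. Interneuron markers overlapped (271 to 320, 270 to 328 and 260 to 385 CPM). Meningeal markers ranged from 9.05 to 14.5 CPM in control, from 12.2 to 21.3 in dKO-N and from 8.95 to 89.5 in dKO-E, highest in dKO-E 1. The part of these shifts in the values of the p53 targets and death genes was not tested.

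Per kilobase of annotated exon, Sesn1 was the most abundant of the 10 genes in control (17.3 ± 2.61 CPM per kb), followed by Mdm2 (9.96 ± 1.35). Bbc3 (5.07 ± 1.13), Trp53 (4.44 ± 0.938), Bax (3.74 ± 1.16), Ccng1 (3.21 ± 0.475) and Trp53inp1 (3.01 ± 0.394) followed, with control libraries that overlapped from each gene to the next. Bcl2l11 (1.32 ± 0.176), Ckap2 (0.916 ± 0.237) and Cdkn1a (0.322 ± 0.196) were lowest. Whether introns were counted is not given in the sources used here, which limits this order. Over the 12 libraries, Bax and Bbc3 varied together (Pearson r = 0.70 of log2 CPM, as a description), as did Mdm2 and Trp53inp1 (0.75), while Trp53inp1 and Bbc3 ran opposite (-0.67). These values share libraries and group differences, and Bax and Bbc3 have few counts. Among 9114 genes the profile most like that of Ckap2 was that of Gtf2ird1 (r = 0.925), then Ranbp9 (0.915) and Lrch1 (0.91). For Trp53inp1, among 9113, it was that of Pknox1 (0.895), Ints6l (0.887) and Mrpl1 (0.886).

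**Figure D4:**
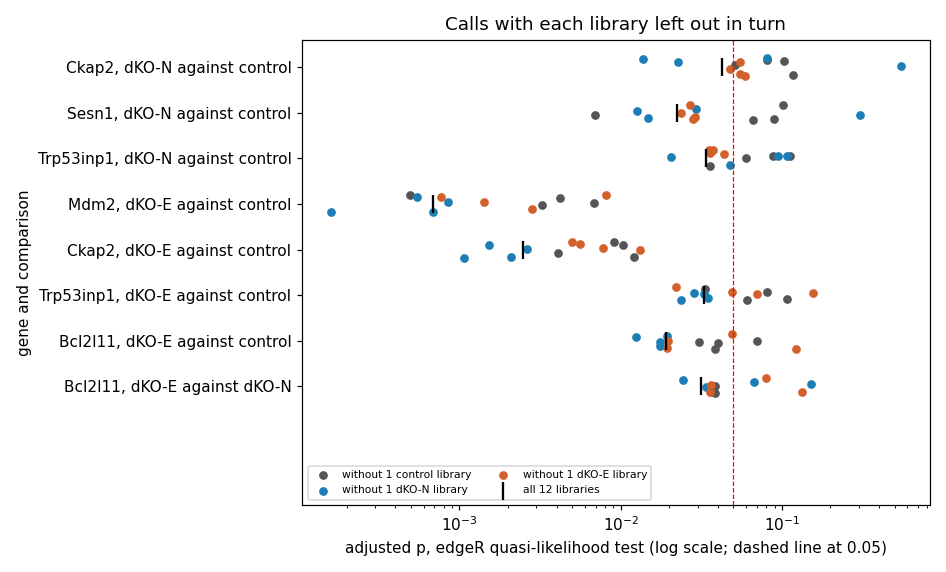
Adjusted p (edgeR, log axis) of each call among the 10 genes with all 12 libraries (bar) and with each library left out (points, coloured by the group of the omitted library). Mdm2 and Ckap2 in dKO-E stay left of the dashed line at 0.05 in all 12 leave-outs, and the other 6 calls cross it in at least 2.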

How the data were processed

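Raw counts per gene were deposited as 1 file for each of 12 libraries, each with 51912 gene lines and 5 summary lines, which name no gene and took 11.1% to 14.8% of reads. The tools named in the submitters' processing notes are HTSeq, STAR and UMI-tools, and the build is mm10. For their versions, the annotation and strand settings, the sources used here give nothing. Per the labels' protocols, libraries were made by ClickSeq. GENCODE M21 names matched 99.6% of identifiers.

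Counts were filtered (filterByExpr, minimum count 10, leaving 11076 genes), scaled by TMM and tested with edgeR 4.0.16 (R 4.3.3) in 1 fit of all 12 libraries, with 9 residual degrees of freedom. SEs were taken from the log2 fold change and its F statistic. P-values were adjusted by Benjamini-Hochberg over all genes tested. The labels do not say that libraries are separate animals, so p-values measure the spread between libraries, which may be technical. Replicates differed by more than counting noise (chi-square over its degrees of freedom 1.62 to 5.99), so all were kept apart. The fit was tested on simulated counts.

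The members, the gene lists and the alternatives (normalization, DESeq2 1.42.0, filter, libraries left out, replicate number or sex as a covariate, thinning) were chosen with earlier results of these data known. All 10 genes are named. From each pathway list, up to 4 called genes with the largest change are named, or the 2 most abundant where none was called, and for genes called in both knockouts the 3 most alike of at least 3 log2 CPM. Figures were drawn with matplotlib 3.10.9.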

Additional observations from a re-analysis of the deposited data

Results flagged for a closer look

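Of 30 gene and group combinations of 4 libraries, 1 held a library that stood apart by its gap relative to the range of the group. Ccng1 was at 8.78 CPM in control 4, against 12, 12.2 and 12.1 CPM in the other controls. Chance alone gives about 1 such case in 20.

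The effect against control differed between the knockouts for Bcl2l11 (log2 fold change 0.87 for dKO-E against dKO-N). Among genes of the pathway lists the same direct comparison was called for Nbn (1.25), Ppm1d (0.92) and Mapk9 (0.35), higher in dKO-E, and for Rrm2b (-0.88), Aifm1 (-0.87), Xrcc6 (-0.80), Atm (-0.56) and Bcl2l13 (-0.53), lower in dKO-E. Of these, the call of Ppm1d was the one that held in every leave-out and every other alternative run. By pathway list, 0% to 9.09% of the tested genes were called higher and 0% to 9.09% lower, against 3.11% and 3.73% of all genes. Rrm2b was lost in 9 leave-outs, of every control, dKO-N 3 and 4 and dKO-E 2, 3 and 4 (edgeR adjusted p = 0.0544 to 0.336).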

How the results depend on the processing

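Of 8 calls among the 10 genes, 2 held in every leave-out, Mdm2 and Ckap2 in dKO-E, and Ckap2 in every alternative in which it was tested. Of 25 calls of pathway genes 8 held in every leave-out and 5 in every alternative.

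The number of the 9 tested genes called in dKO-N, 3 as reported, was 0 with DESeq2, 1 without a low-count filter, 0 without control 1 and 3, 0 after thinning to 722080 counts and 0 to 3 when a library was left out. In dKO-E, 4 as reported, it was 2 with DESeq2, 2 without control 1 and 3, 2 with sex as a covariate, 0 after thinning and 2 to 4 in leave-outs. Between the knockouts, 1 as reported, it was 2 with library totals (Mdm2, log2 fold change 0.43, adjusted p = 0.0433), 0 with DESeq2, 0 with only the 2 groups, 0 with sex, 0 after thinning and 0 to 1 in leave-outs. Where the count was 0, genes with an unadjusted p under 0.05 numbered 3 (DESeq2), 5 (without control 1 and 3) and 2 (thinned) in dKO-N and 2 (thinned) in dKO-E. Between the knockouts they numbered 3 with DESeq2, with only the 2 groups and with the block, 1 with sex and 0 after thinning. After thinning 5 genes could be tested, not Ckap2, Bcl2l11, Cdkn1a, Ccng1 and Bax.

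Over all genes, the count for dKO-N was 1255, 756 without control 1 and 3, 797 after thinning and 972 to 1298 in leave-outs. For dKO-E it was 2238, 1215 without control 1 and 3, 1325 with sex, 1223 after thinning and 1699 to 2753 in leave-outs. Between the knockouts it was 758, 488 with only the 2 groups, 223 with sex, 324 after thinning and 300 to 1036 in leave-outs, with 300 without dKO-N 4, 476 without dKO-E 3 and 421 without dKO-E 4. With library totals the share of calls that were higher was 57.8%, 73.9% and 65.4%, against 44.5%, 50% and 45.5%, and the median of all genes in dKO-E moved to 0.135.

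The replicate number as a block changed the counts to 1 of the 9 genes in dKO-N, 0 between the knockouts and 500 of all genes between the knockouts. The numbers share no stated source, same-numbered libraries did not deviate together (r -0.124 to 0.013 over 12 pairs), and none of 12 libraries correlated best with its own number.

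Signs turned where values were near 0 and not called. With single libraries left out, Ccng1 in dKO-N ran from -0.31 to 0.03, Bbc3 in dKO-E from -0.28 to 0.01, Crebbp in dKO-N from -0.1 to 0.05 and, between the knockouts, Trp53 from -0.18 to 0.13 and Trp53inp1 from -0.19 to 0.02. Bax in dKO-E was -0.11 without control 1 and 3. Between the knockouts Trp53 was -0.01 with DESeq2, 0 with sex and -0.23 after thinning. In dKO-N Crebbp was 0.04 with library totals and Mcl1 -0.01 after thinning. The cause of these changes was not tested.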
